A study of Homo sapiens with 8 samples.

Results

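CDK4 and CDK6 are kinases that act in the G1 phase of the cell cycle. They are switched on by the D cyclins (CCND1, CCND2 and CCND3), and together they phosphorylate the pocket proteins RB1, RBL1 (p107) and RBL2 (p130). Unphosphorylated RB1 holds back activator E2F factors, while RBL1 and RBL2 join repressor E2Fs and, with the MuvB proteins, the DREAM complex that keeps cell cycle genes low in resting cells. CDK2 acts on the same pocket proteins later in G1, and the 8 genes are described here across cells in which CDK2 was inhibited or deleted.

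The genes were chosen by name, as all probes outside the control spots that carry one of the 8 symbols. That gave 9 probes of 60 bases among 50599 on the array, or 8 of 36337 gene names. Gene expression was measured on 8 one-colour arrays in HCT-116, a line of human colorectal cancer cells, with 2 replicates in each of 4 groups. WT was the parental line, untreated and in exponential growth. WT+NU6102 was the parental line after 24 h in 20 µM NU6102, a purine inhibitor of CDK1 and CDK2. The paper reports that this dose arrested growth, and it refers to an arrest of the treated WT cells in G2/M. In that group, cell cycle position and other effects of the inhibitor cannot be told apart. CDK2 KO was an untreated, exponentially growing CDK2-/- line bought, like the parent, from a supplier, so all of its differences from WT rest on 1 line. R50 was a resistant line raised from the start in 50 µM NU6102 and still in it when collected. In R50 the resistance and the presence of inhibitor thus cannot be told apart. The paper reports fewer R50 than WT cells in S phase at a given time, so cell cycle position cannot be separated from these either. All differences of R50 also rest on 1 line. The paper describes early and late R50 cells, and its microarray methods do not say which were used. All cells were grown in medium with serum, and none of the groups shares a further treatment.

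The replicates are described as biological, and nothing says that they came from cultures grown on separate days. The p-values therefore measure only the spread between these samples, which may be technical. Replicates correlated at r between 0.994 and 0.996 across tested probes. WT and WT+NU6102 lay on 1 slide and CDK2 KO and R50 on another, each slide scanned on its own. Comparisons of WT+NU6102 with WT and of R50 with CDK2 KO were thus made within a slide, while for groups on different slides the effect of the slide cannot be told apart from theirs. All 5 epithelial markers checked (EPCAM, CDH1, KRT8, KRT18 and KRT19) were well above background on 8 arrays. Of the fibroblast markers, COL1A2, COL3A1 and LUM were so on no array, DCN on 1 and COL1A1 on 8. Of the leukocyte markers, PTPRC and CD14 were on 8 and CD3E on 4, and LYZ had no probe. The part of these markers in the results was not tested. The CDK2 probe (chr12:56365789-56365848, plus strand, hg19) gave normalized log2 signals of -0.76 and -0.76 in WT, -0.44 and -0.42 in WT+NU6102, -1.56 and -1.51 in CDK2 KO and -1.10 and -1.09 in R50. The signal was lowest in CDK2 KO, by -0.77 ± 0.04 (SE) on the log2 scale (limma adjusted p = 0.000268), yet it stayed well above background there. Whether this probe lies inside the deleted part of the gene is not given in the sources used here, so it is a limited check of the labels.

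The sequences shown first are those upstream of the pairs of members whose signals parted most, CDK4 and CDK6 among the kinases and RBL1 and RBL2 among the pocket proteins. Each is the 250 bases before the start of the gene on GRCh38.p14, from RefSeq, on the strand of the gene: CDK4 at chr12:57752311-57752560 (minus strand), CDK6 at chr7:92836574-92836823 (minus), RBL1 at chr20:37095998-37096247 (minus) and RBL2 at chr16:53434221-53434470 (plus). Capitals mark E2F sites (TTTGGCGC, TTTCCCGC, TTTCGCGC or TTTGCCGC) and E-boxes (CACGTG), searched on both strands.
CDK4: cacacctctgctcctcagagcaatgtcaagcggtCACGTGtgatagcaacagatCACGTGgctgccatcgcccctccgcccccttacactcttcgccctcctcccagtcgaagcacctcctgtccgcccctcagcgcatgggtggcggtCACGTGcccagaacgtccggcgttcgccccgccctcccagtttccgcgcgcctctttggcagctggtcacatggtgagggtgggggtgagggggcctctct
CDK6: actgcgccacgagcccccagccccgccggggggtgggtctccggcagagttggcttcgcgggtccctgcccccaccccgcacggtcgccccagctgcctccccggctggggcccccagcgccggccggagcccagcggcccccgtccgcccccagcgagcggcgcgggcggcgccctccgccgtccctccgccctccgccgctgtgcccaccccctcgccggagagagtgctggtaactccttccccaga
RBL1: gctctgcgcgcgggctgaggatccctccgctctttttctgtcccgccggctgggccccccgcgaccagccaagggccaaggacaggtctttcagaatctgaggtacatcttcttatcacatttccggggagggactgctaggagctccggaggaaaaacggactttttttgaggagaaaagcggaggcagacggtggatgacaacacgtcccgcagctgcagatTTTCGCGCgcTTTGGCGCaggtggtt
RBL2: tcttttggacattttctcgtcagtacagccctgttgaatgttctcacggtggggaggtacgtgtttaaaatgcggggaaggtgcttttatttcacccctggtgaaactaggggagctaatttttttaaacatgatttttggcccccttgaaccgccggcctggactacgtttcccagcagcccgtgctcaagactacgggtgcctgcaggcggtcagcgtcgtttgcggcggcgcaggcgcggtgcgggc

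RefSeq windows of 300 bases, running from 250 before to 50 after a start, matched 6 of the 8 members, with 10 windows in all. CCND1 and CCND2 had no window. The start of the only RB1 window lay 172699 bases into the gene, and those of the CCND3 windows 110830, 108227 and 1347 bases into theirs. The sequence before the 5' end of the gene was thus not searched for CCND1, CCND2, CCND3 and RB1. One of the E2F motifs occurred in 3.31% of all 35116 windows and the E-box in 7.26%. RBL1 held 2 E2F motifs, which began 26 and 16 bases before the start, and no other of the 10 windows held any. The upstream sequence of CDK4 held 3 E-boxes, while CDK6 held none before its start and 1 after it. The GC box GGGCGG, which 45% of all windows hold, occurred 3 times each in the CDK4 window and in the CDK6 window at the gene's start, 2 times in that of RBL2, and 4 and 5 times in 2 of the 3 windows of CCND3. The CHR letters TTTGAA, found in 15.2% of windows, occurred once, in the RBL2 window after the start. E2F, E-box and CHR letters did not overlap each other. These matches are descriptions of the letters, and binding was not measured.

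Both RBL1 probes are printed because RBL1 is the 1 member with more than 1 probe, and calls were made with the brighter of them. The probe of NM_002895 lies at chr20:35627197-35627256 and that of NM_183404 at chr20:35635829-35635888, both on the minus strand of hg19.
RBL1 probe of NM_002895: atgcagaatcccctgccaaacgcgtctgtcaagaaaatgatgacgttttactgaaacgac
RBL1 probe of NM_183404: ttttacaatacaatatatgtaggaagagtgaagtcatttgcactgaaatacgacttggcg

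Each of these probes can be read through without a stop codon in at least 1 sense frame. They lie 8573 bases apart in the genome and share no run of bases longer than 7. On the remaining chromosomes, the hg19 positions of the probes were chr12:58142263-58142322 for CDK4, chr7:92234443-92234502 for CDK6, chr11:69468233-69468292 for CCND1, chr12:4414040-4414099 for CCND2, chr6:41903193-41903252 for CCND3, chr13:49055845-49055904 for RB1 and chr16:53524846-53524905 for RBL2. No exon annotation of that build was used here.

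Signals are given as log2 of the background-subtracted intensity less the 75th percentile of its array, so that 0 is the 75th percentile and 1 unit is a 2-fold difference. A gene was called different at a Benjamini-Hochberg adjusted p under 0.05 over 28677 tested probes, in 1 limma fit of the 4 groups. Of the 8 members, 7 had a probe that entered the test. CCND2, the D cyclin best known from lymphoid, ovarian and neural cells, was not well above background on any array, with values between -6.94 and -5.77, and it has no fold change here. RBL1 was represented by its brighter probe. Levels are not compared between genes, since each probe has its own response. In these bulk samples, fewer cells of one kind and less RNA per cell cannot be told apart.

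Among the kinases, CDK6 separated the groups most. Its normalized log2 signal was 0.97 and 0.92 in WT, 2.35 and 2.29 in WT+NU6102, 1.04 and 1.06 in CDK2 KO, and 2.57 and 2.53 in R50. Both inhibitor-exposed groups were high and both untreated groups low, with no overlap between the pairs. CDK6 was 2.60-fold higher in WT+NU6102 than in WT (log2 1.38 ± 0.05 SE, limma adjusted p = 9.34e-05) and 3.05-fold higher in R50 than in WT (1.61 ± 0.05, adjusted p = 0.000131). Within the slide that held both resistant and knockout cells, CDK6 was 2.83-fold higher in R50 than in CDK2 KO (1.50 ± 0.05, adjusted p = 5.29e-05). CDK2 KO differed from WT by 0.11 with a 95% interval from -0.02 to 0.23, which did not pass (adjusted p = 0.164). The level in R50 was 0.23 above that in WT+NU6102 (adjusted p = 0.0111), a call lost without WT+NU6102 replicate 2 (0.20, adjusted p = 0.0615) or R50 replicate 1 (0.21, adjusted p = 0.0534). The doses and durations of those groups also differed.

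CDK4, the closest relative of CDK6, moved less and partly the other way. Its signal was 4.38 and 4.53 in WT, 4.75 and 4.79 in WT+NU6102, 4.58 and 4.61 in CDK2 KO, and 4.18 and 4.18 in R50. R50 was the lowest group and WT+NU6102 the highest, and no groups overlapped. CDK4 rose 1.25-fold with 24 h of NU6102 (0.32 ± 0.06, limma adjusted p = 0.00894) and was lower in R50 than in CDK2 KO by -0.42 ± 0.06 (adjusted p = 0.00488). Against WT, R50 was lower by -0.28 ± 0.06 (adjusted p = 0.0292). That call was kept without WT replicate 1 (-0.35, adjusted p = 0.0382) and lost when any other single array was left out, at adjusted p between 0.0531 and 0.101. CDK2 KO differed from WT by 0.14 (adjusted p = 0.142).

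The difference between the kinases within an array does not depend on the scaling of that array. Relative to its mean in WT, CDK6 less CDK4 was 0.10 and -0.10 in WT, 1.11 and 1.01 in WT+NU6102, -0.03 and -0.04 in CDK2 KO, and 1.90 and 1.87 in R50. The balance moved toward CDK6 in both inhibitor-exposed groups, most in R50, and lay within the WT range in CDK2 KO.

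**Figure D1:**
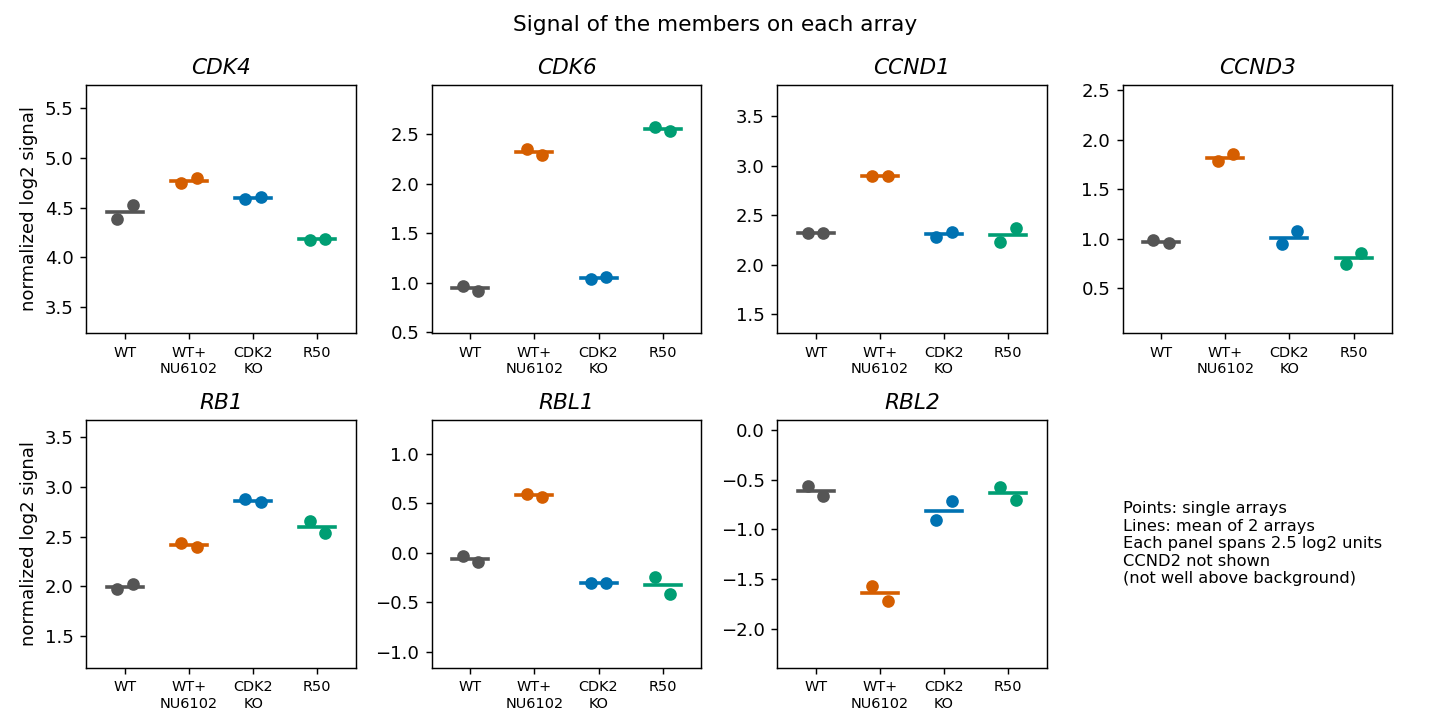
Normalized log2 signal (vertical axis, each panel spanning 2.5 log2 units) of the 7 tested members on each of the 8 arrays, by group (horizontal axis). Points are single arrays and lines are group means. CDK6 was high in WT+NU6102 and R50, CCND1, CCND3 and RBL1 were high in WT+NU6102, RBL2 was low there, and RB1 was highest in CDK2 KO.

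Of the D cyclins, both measured members were high in WT+NU6102 alone. CCND1, the D cyclin most often induced by growth factor signals, gave 2.32 and 2.32 in WT, 2.90 and 2.89 in WT+NU6102, 2.29 and 2.33 in CDK2 KO, and 2.23 and 2.38 in R50. The WT, CDK2 KO and R50 arrays overlapped, and the WT+NU6102 arrays lay above all of them. CCND1 was 1.49-fold higher in WT+NU6102 than in WT (0.57 ± 0.06, limma adjusted p = 0.00113). Its difference from WT was -0.01 in CDK2 KO (95% interval -0.17 to 0.14) and -0.02 in R50 (-0.17 to 0.14).

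CCND3, a D cyclin expressed in most proliferating tissues, gave 0.99 and 0.95 in WT, 1.78 and 1.85 in WT+NU6102, 0.95 and 1.07 in CDK2 KO, and 0.75 and 0.86 in R50. WT+NU6102 stood above the rest, and both R50 arrays lay below all others. CCND3 was 1.80-fold higher in WT+NU6102 than in WT (0.85 ± 0.07, limma adjusted p = 0.000472). In R50 its differences were -0.17 from WT (adjusted p = 0.137) and -0.21 from CDK2 KO (adjusted p = 0.0644), neither called. CCND3 less CCND1, relative to WT, was 0.24 and 0.31 in WT+NU6102, 0.01 and 0.09 in CDK2 KO, and -0.13 and -0.17 in R50.

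**Figure D2:**
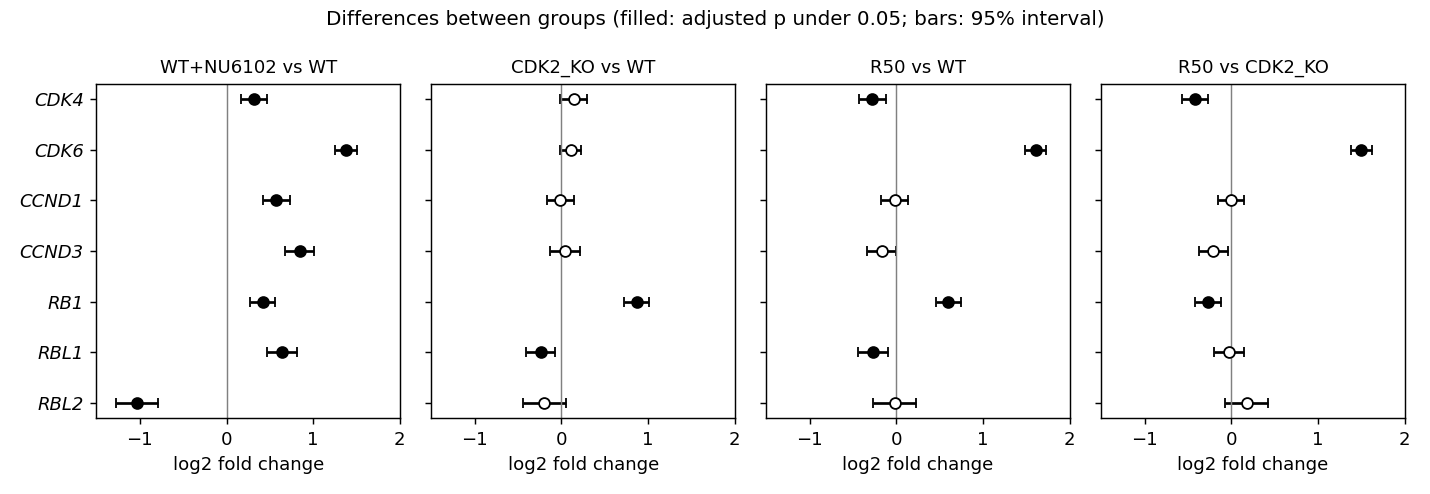
Log2 fold change (horizontal axis) of the 7 tested members in 4 comparisons, with 95% intervals from limma. Filled points passed an adjusted p under 0.05. All 7 members passed in WT+NU6102 against WT, whereas in CDK2 KO against WT RB1 and RBL1 did.

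The 3 pocket proteins followed 3 different courses. RB1, the retinoblastoma tumour suppressor, gave 1.98 and 2.02 in WT, 2.44 and 2.39 in WT+NU6102, 2.88 and 2.84 in CDK2 KO, and 2.66 and 2.53 in R50. WT was the lowest group, CDK2 KO the highest, and no groups overlapped. RB1 was 1.82-fold higher in CDK2 KO (0.87 ± 0.06, limma adjusted p = 0.000449), 1.51-fold in R50 (0.60 ± 0.06, adjusted p = 0.00284) and 1.34-fold in WT+NU6102 (0.42 ± 0.06, adjusted p = 0.00279), all against the same WT arrays. It was the 1 member called higher than WT in all 3 groups. R50 was lower than CDK2 KO by -0.27 ± 0.06 (adjusted p = 0.0187), and this did not pass when the slide was fitted alone (adjusted p = 0.0712) or without either CDK2 KO replicate or R50 replicate 2 (adjusted p from 0.0651 to 0.0900).

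RBL1, a pocket protein that is most abundant in cycling cells and is itself a known E2F target, gave -0.03 and -0.09 in WT, 0.60 and 0.56 in WT+NU6102, -0.30 and -0.30 in CDK2 KO, and -0.24 and -0.41 in R50. WT+NU6102 was highest, and the CDK2 KO and R50 arrays overlapped below WT. RBL1 was 1.56-fold higher in WT+NU6102 (0.64 ± 0.07, limma adjusted p = 0.00113). The differences of CDK2 KO (-0.24, adjusted p = 0.0474) and R50 (-0.27, adjusted p = 0.0449) from WT passed narrowly. The first was lost without either WT, WT+NU6102 or CDK2 KO replicate, at adjusted p from 0.0777 to 0.184, and the second when any array but R50 replicate 1 was left out, at adjusted p from 0.0759 to 0.174.

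The dimmer RBL1 probe, printed above with transcript NM_183404, gave -2.57 and -2.87 in WT, -2.36 and -2.76 in WT+NU6102, -2.89 and -2.95 in CDK2 KO, and -3.24 and -2.92 in R50. Its WT and WT+NU6102 arrays overlapped, and no comparison passed. For WT+NU6102 against WT it gave 0.16 with a 95% interval from -0.30 to 0.61 (limma adjusted p = 0.523). The interval of the brighter probe, 0.47 to 0.81, overlaps it.

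RBL2, the pocket protein that predominates in quiescent cells, gave -0.57 and -0.67 in WT, -1.57 and -1.72 in WT+NU6102, -0.91 and -0.72 in CDK2 KO, and -0.57 and -0.70 in R50. WT+NU6102 was low and apart from all other groups, and WT and R50 overlapped. RBL2 fell by 1.03 ± 0.10 on the log2 scale with NU6102, to 0.490 of the WT signal (limma adjusted p = 0.000765), and it was the 1 member lower there. Differences from WT were -0.20 in CDK2 KO (95% interval -0.44 to 0.05) and -0.02 in R50 (-0.26 to 0.22).

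RBL1 and RBL2 thus parted in WT+NU6102. RBL1 less RBL2, relative to WT, was -0.02 and 0.02 in WT, 1.61 and 1.73 in WT+NU6102, 0.05 and -0.14 in CDK2 KO, and -0.22 and -0.27 in R50. RB1 less RBL2 was 1.39 and 1.50 in WT+NU6102, 1.18 and 0.95 in CDK2 KO, and 0.62 and 0.62 in R50, against -0.07 and 0.07 in WT. All 3 other groups lay above WT in this second balance, and WT+NU6102 highest.

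**Figure D3:**
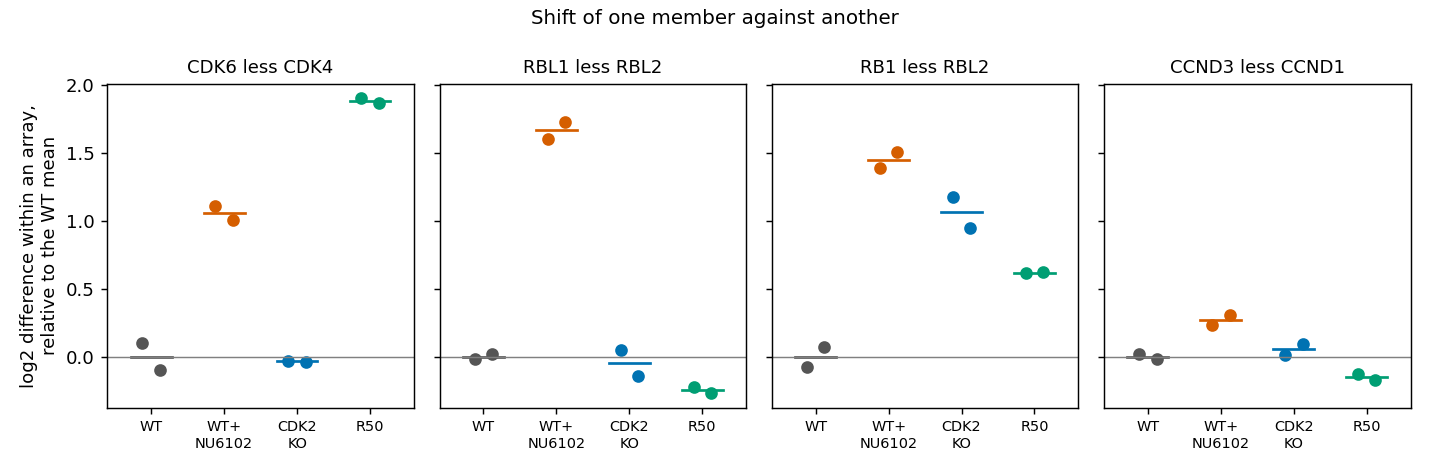
Log2 difference between 2 members within each array, relative to its mean in WT (vertical axis), by group (horizontal axis). Points are arrays and lines are means. CDK6 less CDK4 was highest in R50, with a mean of 1.88, and RBL1 less RBL2 was high in WT+NU6102, with a mean of 1.67.

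The number of members called is read against all 15613 genes with a RefSeq transcript and a tested probe. In WT+NU6102 against WT, 6 of 7 members were higher and 1 lower, where 28.8% of all genes were higher and 24.4% lower. The median log2 difference of the members was 0.57, and that of all genes was 0.03. In CDK2 KO against WT, 1 member was higher, 1 lower and 5 not called, with 19.6% and 16.6% of all genes higher and lower. In R50 against WT, 2 members were higher, 2 lower and 3 not called, with 12.3% of all genes higher and 15.5% lower. R50 and CDK2 KO differed in 1 higher and 2 lower members, where 17.1% and 24.1% of all genes were higher and lower in R50.

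Both of the remaining comparisons set a line of the other slide against treated WT. R50 against WT+NU6102 had 3 members higher (CDK6, RB1 and RBL2) and 4 lower (CDK4, CCND1, CCND3 and RBL1), with 26.5% of all genes higher and 33.6% lower. The RB1 difference there, 0.18 (limma adjusted p = 0.0470), was lost when any array but R50 replicate 2 was left out. CDK2 KO against WT+NU6102 had 2 higher (RB1 by 0.45 and RBL2 by 0.83) and 4 lower, with 29.4% and 31.1% of all genes. Those 4 were CDK6 at -1.27, CCND1 at -0.59, CCND3 at -0.81 and RBL1 at -0.88. WT+NU6102 and WT arrays are shared between comparisons, so these counts are not independent of each other.

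When a log2 fold change of 1 or more in size was required as well, 2 members passed in WT+NU6102 against WT (CDK6 and RBL2), beside 6.89% of all genes, and none in CDK2 KO against WT, beside 5.1%. CDK6 alone passed in R50 against WT (2.79% of genes), in R50 against CDK2 KO (5.46%) and, as lower, in CDK2 KO against WT+NU6102 (12%). CCND3 and RBL2 passed in R50 against WT+NU6102 (12.1%). A limma F-test over the 4 groups at an adjusted p under 0.001, the study's own threshold, passed 5 of 7 members against 27.5% of all genes. CCND1 (adjusted p = 0.00116) and CDK4 (adjusted p = 0.00199) missed it. The count was 1 in place of 5 when any single array was left out.

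The genes around these members were taken from 5 lists. The INK4 proteins bind CDK4 and CDK6 directly, and the CIP/KIP proteins bind cyclin-CDK complexes more broadly. Of these 7 inhibitor genes, 1 was higher and 3 lower in WT+NU6102, 1 higher and 3 lower in CDK2 KO, and 2 higher and 1 lower in R50, each against WT. Here, as for the lists that follow, the shares of all genes higher and lower were 28.8% and 24.4% in WT+NU6102, 19.6% and 16.6% in CDK2 KO, and 12.3% and 15.5% in R50, and several of these counts lie near them. CDKN1C (p57) fell by 1.40 in WT+NU6102 (limma adjusted p = 0.000166) and differed from WT by -0.06 in CDK2 KO and 0.06 in R50, neither called. CDKN1B (p27) was at -0.55 in WT+NU6102 (adjusted p = 0.00223), -0.51 in CDK2 KO (adjusted p = 0.00516) and 0.02 in R50 (adjusted p = 0.891).

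Among the INK4 genes, CDKN2C (p18) was lower in CDK2 KO at -0.53 (limma adjusted p = 0.00184) and in R50 at -0.28 (adjusted p = 0.0218), with 0.03 in WT+NU6102 (adjusted p = 0.728). CDKN2D (p19) was higher in R50 at 0.39 (adjusted p = 0.00509) and in WT+NU6102 at 0.19 (adjusted p = 0.0228). CDKN2B (p15) was not well above background in WT+NU6102 or CDK2 KO, and in WT it was so on 1 of 2 arrays. WT was called higher than both (limma adjusted p = 0.0126 and 0.00983). With signals under the lowest detected signal of their array raised to it, WT was 1.13-fold and 1.24-fold higher. These folds are not strict lower bounds, since an undetected spot can lie at or above that signal, as the undetected WT spot did. CDKN2A differed by -0.14, 0.18 and -0.35 in WT+NU6102, CDK2 KO and R50, none called, while a dimmer CDKN2A probe passed in R50 (-0.51, adjusted p = 0.00418). CDKN1A (p21), a p53 target, was higher in CDK2 KO at 0.33 (adjusted p = 0.0285) and in R50 at 0.32 (adjusted p = 0.0416), with 0.04 in WT+NU6102. When each array was left out in turn, the inhibitors higher numbered 0 to 1 in WT+NU6102, 0 to 1 in CDK2 KO and 1 to 2 in R50, and those lower 2 to 3, 2 to 3 and 0 to 1.

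The E2F factors and their DP partners are the proteins the pocket proteins bind. Of the 10 genes, 6 were higher and 1 lower in WT+NU6102, against 1 and 2 in CDK2 KO and 0 and 3 in R50. Of all genes, 28.8% and 24.4% were higher and lower in WT+NU6102, and the CDK2 KO counts lie near its shares of 19.6% and 16.6%. The 6 were E2F6 at 0.55, E2F7 at 0.49, E2F3 at 0.46, E2F2 at 0.32, E2F5 at 0.30 and E2F1 at 0.23, with 1 of the other E2F6 probes at 0.06 (adjusted p = 0.643). E2F1 to E2F3 are the activators, and E2F6 and E2F7 repress without pocket proteins. TFDP2 was lower in WT+NU6102 (-0.48), CDK2 KO (-0.40) and R50 (-0.24). In CDK2 KO, E2F2 was higher at 0.42 and E2F1 lower at -0.24. In R50, E2F2 and TFDP1 were lower, at -0.22 and -0.26. E2F4, the main partner of RBL2, did not pass in any of these comparisons, with values of 0.00, -0.13 and -0.23, and nor did E2F8, with 0.34, 0.27 and -0.35. The 3 lower genes in R50 became 0 or 1 when any single array was left out.

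The third of these lists holds G1/S genes that E2F is known to switch on. Of 30 such genes, 18 were higher and 6 lower in WT+NU6102, and 14 higher and 3 lower in CDK2 KO. In R50, 0 were higher and 19 lower than WT, beside the 12.3% and 15.5% of all genes given above, and their median was -0.27 against -0.04 for all genes. Within its slide, R50 had 27 lower and 1 higher than CDK2 KO, beside 24.1% and 17.1% of all genes, with a median of -0.44 against -0.06. The 19 became 4 and 5 without WT replicate 1 or 2, and 8 and 12 without R50 replicate 1 or 2. The 14 became 9 without any 1 of the WT or CDK2 KO arrays.

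CCNE2 and CCNE1, the E cyclins that activate CDK2, led this list in both WT+NU6102 (1.37 and 1.17, limma adjusted p = 0.000111 and 0.000166) and CDK2 KO (1.47 and 0.73, adjusted p = 7.26e-05 and 0.000794). In R50 the largest differences were ORC1, a replication origin protein, at -0.54 (adjusted p = 0.0173) and CHEK1, a checkpoint kinase, at -0.44 (adjusted p = 0.00803).

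MuvB and B-MYB genes, whose products join RBL1 and RBL2 in DREAM or replace them later, had 3 of 6 higher in WT+NU6102, 3 of 6 higher in CDK2 KO and 1 of 6 lower in R50, where 28.8% and 19.6% of all genes were higher and 15.5% lower, so the R50 count lies at the share of all genes. LIN9, a MuvB subunit, was at 1.23 in CDK2 KO (limma adjusted p = 0.000366) and at -0.35 in R50 (adjusted p = 0.0295), but its other tested probe gave 0.09 (adjusted p = 0.417) and -0.02 (adjusted p = 0.884), so the probes disagreed. MYBL2 (B-MYB) was at 0.73 in WT+NU6102 (adjusted p = 0.00110), with LIN37 at 0.29 (adjusted p = 0.0280). RBBP4, a histone-binding subunit, was at 0.40 in CDK2 KO (adjusted p = 0.0110), but its other probes ranged from 0.11 to 1.12 there and disagreed in sign in WT+NU6102, where 1 gave -0.47 and another 0.34.

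Of 18 genes for cyclin D turnover and CDK4/6 activation, 7 were higher and 3 lower in WT+NU6102, 1 and 5 in CDK2 KO, and 1 and 3 in R50. Of all genes, 12.3% were higher and 15.5% lower in R50, and the lower count of the list lies near that share. GSK3B, a kinase that marks cyclin D1 for export and degradation, was at 0.85 in WT+NU6102 (limma adjusted p = 0.000280). USP2, a deubiquitinase of cyclin D1, was not well above background there and was higher in WT (limma adjusted p = 0.00312). The fold was 1.53 with low signals raised as for CDKN2B, which is not a strict lower bound. In CDK2 KO, PPP1CB, a phosphatase subunit, was at 0.51 (adjusted p = 0.00207), where its other tested probe gave 0.05 (adjusted p = 0.532). CDK7, of the CDK-activating kinase, was at -0.34 (adjusted p = 0.00604). In R50, FBXO4, an F-box protein, was at -0.43 (adjusted p = 0.0135) and HSP90AB1, a chaperone of CDK4, at -0.35 (adjusted p = 0.00618). Without single arrays, the lower counts of this list ranged from 2 to 5 in CDK2 KO and 1 to 3 in R50, and the higher counts of the MuvB list from 1 to 3 in WT+NU6102 and in CDK2 KO.

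**Figure D4:**
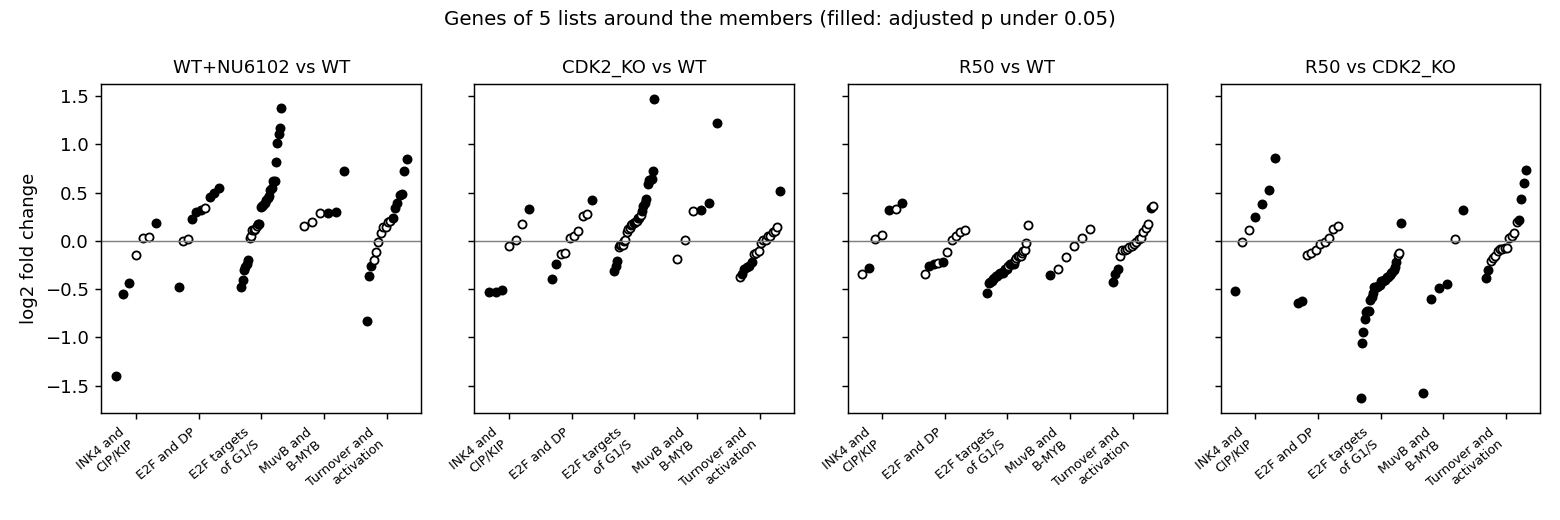
Log2 fold change (vertical axis) of each gene of the 5 lists (horizontal axis, genes ordered by value within a list) in 4 comparisons. Filled points passed an adjusted p under 0.05. Of the 30 E2F target genes, 19 were lower in R50 than in WT and 27 lower in R50 than in CDK2 KO. Of all genes, 15.5% and 24.1% were lower in these comparisons.

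Genes with the pattern most like a member were sought for the 3 members whose group means spanned at least 1 log2 unit, among 2316 genes well above background on 8 arrays with as wide a span. The likeness is Pearson's r over the 8 arrays, which share their groups and slides, and it is given as a description. Nearest to CDK6 were SLC12A2 (r = 0.992), a sodium-potassium-chloride transporter, then FTHL17 (0.969) and FAM46C (0.949). SLC12A2 was at 0.98 in WT+NU6102, 0.17 in CDK2 KO and 1.29 in R50 relative to WT. Nearest to CCND3 were MRPS11 (0.998), SLC10A3 (0.996) and NOL9 (0.996), and nearest to RBL2 were TMEM229B (0.998), METTL7A (0.991) and GTF2IRD2 (0.989).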

How the data were processed

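RNA of HCT-116 cells was hybridized to 8 one-colour Agilent arrays, 2 per group. The authors deposited scanner files in which Agilent Feature Extraction 11.5.1.1 gives each spot a background-subtracted intensity, with no normalization between arrays, and a matrix from GeneSpring GX with processed log2 values, 28719 probes long. The deposited log2 values were used as an alternative, since the rule that left these probes is not given in the sources used here. In that matrix the median of every probe over the arrays is 0 and array medians run from -0.02 to 0.02. For 99.7% of 28702 probes compared, its differences between arrays match those of log2 intensity within 0.1, up to 1 constant per array, so scale, centring and direction are known. The files mark 0 of the members' spots as saturated.

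Control and outlier spots were left out, log2 intensity was reduced by the 75th percentile of each array, and probes with several spots took their mean. Among 50599 probes, 31 lacked a usable spot somewhere. A test was run on the 28677 for which some group had both its arrays well above background, 24489 of which were so on all arrays. Detected spots numbered 32376 to 36206 per array, and precision is limited by how few arrays there are. Limma 3.58.1 (R 4.3.3, with data.table at version 1.17.8) fitted 4 groups with empirical Bayes moderation, two-sided, with Benjamini-Hochberg adjustment, and was tested on simulated data. A gene is represented by its brightest tested probe, and background shares are over 15613 genes. Motifs and figures used Python 3.11.15, numpy 2.4.6 and matplotlib 3.10.9. Sequences upstream of genes are RefSeq's on GRCh38.p14, while probe positions on hg19 are from the scanner files of the parental cells, treated and untreated.

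The members and lists were chosen with earlier results of these data known. Named genes are the members, the deleted CDK2, all inhibitor and E2F/DP genes, the 2 largest called differences of each other list against WT, and the 3 genes most like each member whose group means span 1 log2 unit. The settings varied were the background correction (normexp, offset 50), the normalization (quantile), other filters on dim probes, an intensity trend in the prior, the deposited log2 values, the replicate number as a block, the mean of probes, each slide alone, each array left out, the methods' t-test and analysis of variance, and a fold threshold. One of the leukocyte markers checked is not reported here.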

Additional observations from a re-analysis of the deposited data

How the results depend on the processing

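The methods' t-test, their analysis of variance and the fold threshold are given apart below. Across the remaining alternatives and the fits without 1 array, 618 member differences kept their direction and side of the threshold. Of the others, 45 lost the call, 9 gained it and 14 turned in sign, all of these 14 uncalled. The differences called in WT+NU6102 against WT kept direction and call in all fits without 1 array. The number of members called against WT fell from 2 to 1 in CDK2 KO and from 4 to 2 in R50 without a filter on dim probes. It was 1 in CDK2 KO with the mean of probes. The methods' t-test on the same values gave 2 members in R50 against WT unadjusted and 0 after Benjamini-Hochberg adjustment, 1 in CDK2 KO adjusted, and 4 in place of 7 in R50 against WT+NU6102 adjusted. Adjusted, that t-test also lost CDK4 in WT+NU6102 against WT (adjusted p = 0.124) and RB1 in R50 against CDK2 KO (0.149). RBL2 in CDK2 KO against WT+NU6102 was lost as well (0.0599). When a log2 fold change of 1 or more in size was also required, counts were 2 in WT+NU6102, 0 in CDK2 KO and 1 in R50 against WT, 1 in R50 against CDK2 KO, 2 in R50 against WT+NU6102 and 1 in CDK2 KO against WT+NU6102. The F-test passed 1 member in place of 5 without the filter, with the replicate block and by the methods' analysis of variance. The cause was not tested.

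Leaving out each array gave 1 to 2 members in CDK2 KO and 2 to 3 in R50 against WT, 5 to 7 in R50 against WT+NU6102 and 1 by the F-test. A lone replicate was there assumed to vary like the other groups. Signs near 0 turned for RBL2 in R50 against WT (0.0202 with normexp), CCND1 in R50 against CDK2 KO (0.00531 with normexp, 0.0265 with quantile normalization, 0.0172 in the deposited values) and against WT (0.00613 with quantile normalization), and RBL1 in R50 against CDK2 KO (0.0142 with normexp). Without 1 array, CCND1 ranged from -0.0361 to 0.00860 in CDK2 KO and from -0.0930 to 0.0544 in R50 against WT and from -0.0792 to 0.0682 in R50 against CDK2 KO, CCND3 from -0.0221 to 0.10 in CDK2 KO, RBL1 from -0.11 to 0.0605 in R50 against CDK2 KO, and RBL2 from -0.0845 to 0.0430 in R50 against WT. Of 500 counts over the gene lists under other settings, 57 moved by over 1.5 times, among them the E2F targets lower in R50, 5 without the filter. In the fits without 1 array, 112 of 480 such counts moved by as much. Same-numbered replicates deviated together at r between -0.03 and 0.05, so no large shared deviation was seen. With 2 arrays per group, this cannot exclude that same-numbered samples were handled together. With the replicate number as a block, the RB1 difference of R50 from WT+NU6102 did not pass (adjusted p = 0.0579), and no other pairwise call on a member changed. Signal over background bars a value for CCND2.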
